A study of Danio rerio with 21 samples.

Results

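Blood-derived cells of the adult zebrafish thymus were compared between an early and a late label, as mCherry-positive cells profiled one by one. Of 201364 cell barcodes in 21 libraries, 6085 cells belong to the comparison, 4297 in the early and 1788 in the late library. They are the adult thymus libraries, from which barcodes under 500 UMIs (unique molecular identifiers, each counting 1 captured mRNA molecule), under 200 genes or over 20% mitochondrial UMIs were left out, 2 in the early and 3 in the late library. In the early group, haematopoietic stem and progenitor cells (HSPCs) had received mCherry, a mark that their descendants inherit, on day 1 after fertilization (1 dpf). In the late group the mark was given at 3 dpf. Fish of both groups were examined at 4 months of age, when the thymus was dissected and gently triturated and mCherry cells were sorted. The study asked how HSPCs labelled at these days contribute to immune cells of adult tissues. The labels name neither the promoter behind the mark nor the strain, the sex or the number of fish per library, and each group is 1 library, so there is no replicate check, and all comparisons are without a test. Intervals are exact Poisson (UMI sums) or exact Clopper-Pearson (shares) at the 95% level and cover counting error only, not the spread between fish or libraries, and since UMIs of 1 cell are not independent they are too narrow as measures of cells.

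The thymus is the organ in which T cells mature. Progenitors home to it through chemokine receptors such as Ccr9 and receive Notch and interleukin-7 signals. They rearrange their receptor genes with the recombinases Rag1 and Rag2, and are selected on MHC molecules presented by stroma, dendritic cells and macrophages before CD4 or CD8 T cells leave. The organ also holds B cells and innate lymphoid cells. A mark placed in embryonic HSPCs passes to all their descendants, so an adult library of marked cells samples the progeny of the HSPCs marked on that day.

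The early library held 22951959 UMIs and the late one 10799061, with medians of 3987 and 4883 UMIs and 1084 and 1169 genes per cell. Both libraries shared 2 barcodes. mCherry itself had a UMI in 2030 early cells (47.2%) and 894 late cells. Of genes active in T-cell precursors, ccr9a was found in most cells and tcf7 in fewer. ccr9a, the receptor for the thymic chemokine Ccl25, had a UMI in 92.1% of early and 91.4% of late cells, and tcf7, a Notch-induced T-lineage transcription factor, in 45.0% and 41.6%. ccr9a was not limited to T cells, since it had a UMI in all 169 early cells and in 283 of 284 late cells of the B-lineage gate described below. In the myeloid gate it had one in 98.3% of early and 92.9% of late cells, so it is not read as a mark of T-cell precursors. The markers that define cortical thymocytes were rare: rag1 had a UMI in 1.3% of early and 0.503% of late cells, and dntt, the enzyme that adds bases at receptor joints, in 2.16% and 1.96%. The thymic epithelial master regulator foxn1 had 2 UMIs in the early and 1 UMI in the late library. Both libraries therefore showed lymphoid cells, few of them with transcripts of receptor rearrangement. Transcripts of red cells and neutrophils were also found outside their gates, more often in the early library. hbba1, a beta globin, had a UMI in 32.9% of early and 0.781% of late cells of the T-lineage gate (median depths 4577 and 5737 UMIs), and in 38.4% and 2.38% of the myeloid gate. The neutrophil lysozyme lyz had one in 18.1% and 11.5% of the T-lineage gate and in 20.9% and 11.3% of the myeloid gate. Haemoglobin and neutrophil granule genes in the other gates are therefore not read as products of the gated cells.

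Cells were sorted into types by counting distinct marker genes with a UMI. A cell entered the gate with the most marker genes, at least 2 and with no tie. Cells with at least 20% haemoglobin UMIs were set apart as erythroid. The B-lineage gate showed the widest difference in share among the gates, at 3.93% (3.37 to 4.56; 169 cells) of the early library and 15.9% (14.2 to 17.7; 284 cells) of the late one, a difference of -12.0 points (-13.8 to -10.2). The T-lineage gate held 13.1% (12.2 to 14.2; 565 cells) of early and 21.5% (19.6 to 23.5; 384 cells) of late cells, a difference of -8.33 points (-10.5 to -6.17). When every cell was thinned to 1000 UMIs, which left out 204 early and 64 late cells, the B-lineage difference was -4.89 points (-6.20 to -3.71), but the T-lineage difference was -0.142 points (-1.19 to 0.806). Only 120 early and 53 late cells still reached the T-lineage gate at that depth, so the higher late share was not seen once depth was equal. The natural killer and innate lymphoid (NK/ILC) gate held 7.94% (341 cells) of early and 5.98% (107 cells) of late cells, a difference of 1.95 points (0.513 to 3.31). With at least 3 marker genes this difference turned to -0.278 points (-1.19 to 0.526). The myeloid gate, made of macrophage and general myeloid markers and of no dendritic marker, held 12.4% (531 cells) and 9.4% (168 cells), a difference of 2.96 points (1.22 to 4.62).

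The neutrophil gate held 12.6% (542 cells) of the early and 5.15% (92 cells) of the late library, and the erythroid gate 3.82% (164 cells) and 1.01% (18 cells). The 7 neutrophil gate genes summed to 34605.7 CPM in the early and 85557.9 CPM in the late neutrophil gate. The part of other cells in that gate was not tested, so its share is not read as the share of neutrophils. Cells of the thrombocyte gate, the nucleated clotting cells of fish, were fewer with the early label: 2 cells (0.0465%; 0.00564 to 0.168) stood in the early library and 68 cells (3.8%; 2.97 to 4.8) in the late one. Cells of the HSPC gate were 0.884% of early and 1.12% of late cells. The non-blood gate held 8 early cells and none of 1788 late cells, a count that allows a share of up to 0.168%. Ties between gates took 5.82% of early and 3.3% of late cells, and 39.3% of early and 32.9% of late cells had too few marker genes to enter a gate. Many of these ungated cells carried lymphoid transcripts: il2rb, a receptor chain for interleukins 2 and 15, had a UMI in 59.6% of early and 45.7% of late ones, and il7r, the interleukin-7 receptor, in 41.8% and 45.1%. A wider lymphoid group was therefore formed after the data were seen, from the T-lineage and NK/ILC gates, cells tied between these gates, and ungated cells with an il2rb or il7r UMI. It held 50.2% (48.7 to 51.7; 2157 cells) of the early and 50.1% (47.8 to 52.5; 896 cells) of the late library, a difference of 0.086 points (-2.70 to 2.87).

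**Figure D1:**
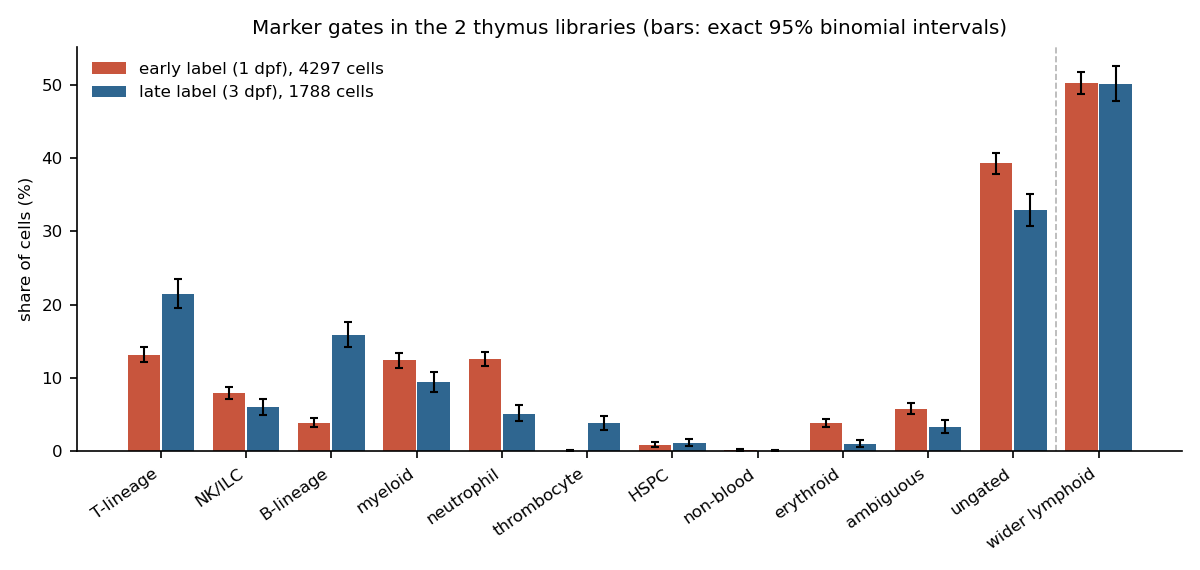
Share of cells (%) in each marker gate for the early (left bar) and late (right bar) label, with exact 95% binomial intervals. B-lineage cells stand at 3.93% and 15.9% and thrombocytes at 0.0465% and 3.8%, while the wider lymphoid group right of the dashed line, which overlaps the gates, stands at 50.2% and 50.1%.

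Within the T-lineage gate, cells with a rag1 UMI were more common with the early label. A rag1 or rag2 UMI was found in 28 of 565 early cells (4.96%; 3.32 to 7.08) and 2 of 384 late cells (0.521%; 0.0631 to 1.87), a difference of 4.43 points (2.31 to 6.61). In the myeloid gate, which should lack these genes, it was found in 7 of 531 early cells (1.32%; median depth 7798 UMIs) and 0 of 168 late cells (median depth 9396.5 UMIs, a share of up to 1.79% allowed). After thinning, 4 of 120 early and 0 of 53 late T-lineage cells had one, a difference of 3.33 points (-3.81 to 8.31). The difference at full depth rested on rag1, with a UMI in 28 early and 1 late T-lineage cells. rag2 had a UMI in 2 early (0.354%) and 2 late (0.521%) T-lineage cells. Among ungated cells the order was opposite, with a rag1 UMI in 0.178% of early and 0.85% of late cells and a dntt UMI in 0.83% and 2.21%. Cells with a cd4-1 but no cd8a UMI were 12.4% of early and 14.6% of late T-lineage cells (difference -2.19 points, -6.91 to 2.32). Cells with a cd8a but no cd4-1 UMI were 14.0% and 17.4% (-3.47 points, -8.47 to 1.36). A cd4-1 UMI of any kind was found in 93 early and 57 late T-lineage cells, of which 70 and 56 had no cd8a UMI. The remaining cells, with UMIs of both genes, were not made a subset of their own. Cells with UMIs of at least 2 of 10 division genes were 5.84% and 4.17% (1.67 points, -1.41 to 4.55). The counting intervals of the last 3 differences include 0. With at least 3 gate genes the difference in dividing cells was 6.35 points (0.776 to 11.8). In the myeloid gate, cells with a cd4-1 but no cd8a UMI were 14.5% of early and 14.3% of late cells. Those with a cd8a but no cd4-1 UMI were 7.34% and 2.38% there. Both genes also help define the T-lineage gate, so neither subset is read as a type of T cell. In the wider lymphoid group, cells with a cd4-1 but no cd8a UMI were 3.94% of early and 6.7% of late cells (-2.76 points, -4.75 to -0.961), and after thinning the difference was -1.9 points (-4.05 to -0.157). Those with a cd8a but no cd4-1 UMI were 6.35% and 10.6% (-4.25 points, -6.67 to -2.02), and after thinning the difference was -1.86 points (-4.34 to 0.238).

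Expression was compared as UMIs summed over cells per 1000000 UMIs (CPM), on the scale log2((early CPM + 5)/(late CPM + 5)), which understates differences of low genes. Features with at least 50 UMIs in the higher library were compared, and 2-fold or more on this scale is called higher or lower. Of 11364 features in all cells, 236 (2.08%) were higher and 190 (1.67%) lower in early cells, and the median ratio was 0.11. Fewer cells of a type and less RNA per cell cannot be told apart in such sums.

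In all cells, most UMIs of several of the genes highest with the early label lay in small groups of cells. ccl25b, the chemokine that draws progenitors to the thymus, had 123.4 CPM (118.9 to 128.0, 2832 UMIs in 91 cells) in the early library and 0 UMIs in the late library, at least 444.1-fold higher against a floor of 3 UMIs in the late library. Of its early UMIs 95.3% lay in 6 cells of the non-blood gate and 85.3% in 1 cell. cfd, the complement protease factor D, showed the same makeup, with 46.1 CPM (43.4 to 49.0, 1058 UMIs in 18 cells) in the early library and 0.556 CPM (0.204 to 1.21, 6 UMIs in 3 cells) in the late library, 96.0% of the early UMIs being in 3 non-blood cells. Globin genes were also high: hbba2 had 140.2 CPM (early) and 0.834 CPM (late), hbaa2 had 57.9 CPM (early) and 0.0926 CPM (late), hbba1 (ENSDARG00000089087) had 4059.4 CPM (early) and 428.4 CPM (late) and hbaa1 had 2196.3 CPM (early) and 229.9 CPM (late). At least 96.6% of their early UMIs lay in the erythroid gate, but these genes define that gate, so a high share there was fixed in advance. Without that gate the ratios of hbba2 and hbaa2 were 0.76 and 0.48, while those of hbba1 (ENSDARG00000089087) and hbaa1 stayed past 2-fold.

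Neutrophil genes were the other high group. tcnbb, a vitamin B12-binding transcobalamin, had 197.7 CPM (192.0 to 203.5, 4537 UMIs in 328 cells) in the early library and 8.15 CPM (6.54 to 10.0, 88 UMIs in 14 cells) in the late library. scpp8, a secretory calcium-binding phosphoprotein gene, had 348.6 CPM (early) and 33.2 CPM (late), and the collagenase mmp13a (ENSDARG00000012395) had 92.9 CPM (early) and 2.87 CPM (late). At least 92.7% of the early UMIs of these 3 genes lay in the neutrophil gate, which mmp13a helps define. In contrast, the major granule gene lyz, also a gene of that gate, had 2593.2 CPM (early) and 3252.9 CPM (late), with a ratio of -0.33. Of 14 neutrophil granule features with enough UMIs, 7 were higher and none lower, with a median ratio of 1.11. In that gate, transcripts of lymphoid cells differed between the labels in both directions. il2rb had a UMI in 27.5% of early and 6.52% of late neutrophil-gate cells, and tcf7 in 25.5% and 8.70%. The sum of the 7 NK/ILC gate genes, il2rb among them, went the other way there, at 213.9 CPM (early) and 7045.3 CPM (late). Of these 7 genes 5 had no UMI in the late neutrophil gate, so the sum does not stand for the genes as a set. Most of the late sum was nkl.4, with 18.7 CPM (68 UMIs in 16 cells) early and 6979.3 CPM (3701 UMIs in 15 cells) late. Expression within the neutrophil gate was therefore not made a main comparison: of 5212 features, 517 (9.92%) were higher and 268 (5.14%) lower there, and the part of the lymphoid transcripts in these counts was not tested.

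Among genes lower with the early label, B-cell genes formed the broadest group. Of 21 features of the B-cell and immunoglobulin list with enough UMIs, 12 were lower and 2 higher, with a median ratio of -1.38. igl3v5, an immunoglobulin light-chain variable gene, had 32.1 CPM (29.8 to 34.5, 736 UMIs in 268 cells) in the early library and 290.1 CPM (280.0 to 300.4, 3132 UMIs in 345 cells) in the late library. Of its late UMIs 33.9% lay in 1 cell and 65.8% in 10 cells, and its ratio stayed past 2-fold without the top cell of each library. The antigen receptor partner cd79a had 185 UMIs (early) and 390 UMIs (late) and the B-cell master regulator pax5 5.32 CPM (early) and 18.9 CPM (late). The B-lineage gate held 3.93% of early against 15.9% of late cells. cd79a and pax5 help define that gate, so they are no separate evidence beside its share, while igl3v5 is not a gate gene. fn1b, a fibronectin, and apln, the peptide apelin, lay mostly in the thrombocyte gate of the late library. fn1b is itself a gene of that gate, so its place there was partly fixed in advance, while apln is not a gate gene. fn1b had 1.0 CPM (0.635 to 1.5, 23 UMIs in 5 cells) in the early library and 53.9 CPM (49.6 to 58.5, 582 UMIs in 67 cells) in the late library, with 99.1% of late UMIs in the thrombocyte gate. apln had 0.523 CPM (early) and 48.3 CPM (late), with 98.5%. When all gates were given the same weight in both libraries, the ratios of fn1b and apln were -0.31 and -0.30.

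Several strongly lower genes came from very few late cells. grn2, a granulin, had 2.0 CPM (1.47 to 2.67, 46 UMIs in 14 cells) in the early library and 366.7 CPM (355.3 to 378.3, 3959 UMIs in 12 cells) in the late library, and 80.7% of the late UMIs were in 1 cell. nkl.4, which encodes an NK-lysin, a pore-forming antimicrobial peptide, had 29.8 CPM (27.6 to 32.1, 684 UMIs in 162 cells) in the early library and 597.6 CPM (583.1 to 612.3, 6452 UMIs in 68 cells) in the late library. In the early library 70.8% of its UMIs lay in the NK/ILC gate, while in the late one 57.4% lay in 15 cells of the neutrophil gate. nkl.4 is a gene of the NK/ILC gate, so its share there was partly fixed in advance. osm, the cytokine oncostatin M, had 18.5 CPM (16.8 to 20.3, 424 UMIs in 25 cells) in the early library and 254.4 CPM (245.0 to 264.1, 2747 UMIs in 57 cells) in the late library, and 73.5% of late UMIs were in 42 ungated cells. ccl35.2, a CC chemokine, had 54.9 CPM (52.0 to 58.1, 1261 UMIs in 222 cells) in the early library and 700.6 CPM (684.9 to 716.6, 7565 UMIs in 207 cells) in the late library, with 61.0% of late UMIs in 103 myeloid cells. In contrast, kif26ba, a kinesin-family gene, was spread widely, with 0.0871 CPM (0.0106 to 0.315, 2 UMIs in 2 cells) in the early library and 40 CPM (36.3 to 44.0, 432 UMIs in 265 cells) in the late library.

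**Figure D2:**
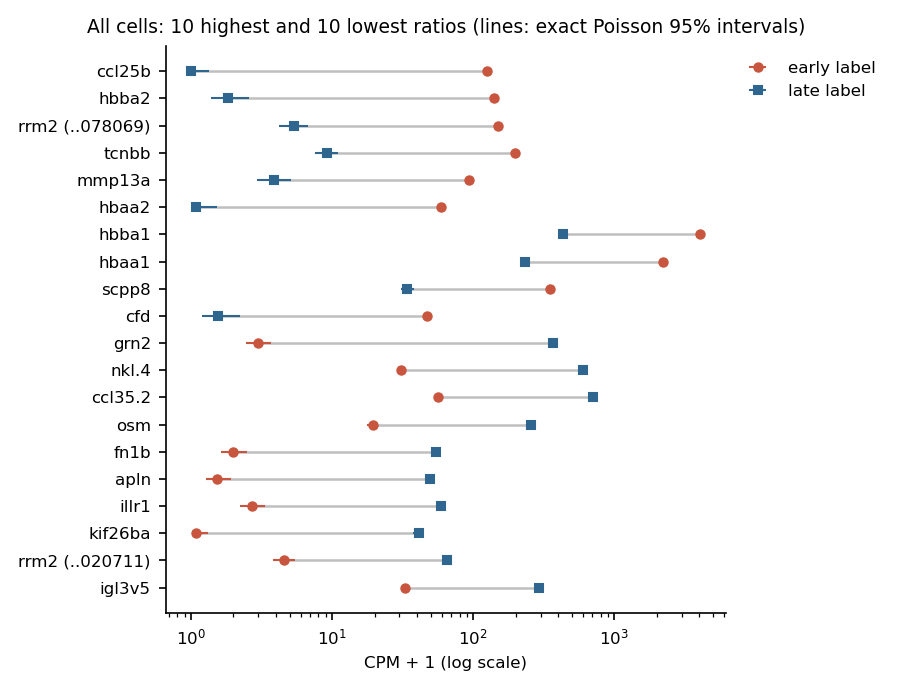
CPM + 1 (log axis) of the 10 features with the highest and the 10 with the lowest early-over-late ratios in all cells, for the early (circles) and late (squares) label, with exact 95% Poisson intervals. ccl25b stands at 123.4 CPM in early cells against 0 in late cells, and grn2 at 2.0 CPM against 366.7 CPM.

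In the T-lineage gate rag1 and dntt were higher and some effector cytokines lower with the early label. None of the 11 T-cell receptor and coreceptor features compared passed 2-fold. Of 4829 features, 137 (2.84%) were higher and 92 (1.91%) lower in early cells, and the median ratio was 0.11. Genes of the gate itself were left out, among them the alpha and beta receptor constant genes, cd4-1, cd8a and lck, so these were not compared. Of 11 other T-cell receptor and coreceptor features with enough UMIs none reached 2-fold, with a median ratio of -0.27, against 4.74% of all features. cd8b, a chain of the CD8 coreceptor, had 43.5 CPM (early) and 50.7 CPM (late), the delta receptor constant gene trdc had 54.6 CPM (early) and 74.7 CPM (late), and the adaptor lat, which relays receptor signals, had 38.7 CPM (early) and 69.7 CPM (late). Among 14 thymocyte transcription factors with enough UMIs, myb, a progenitor factor, was higher, with 49.5 CPM (42.2 to 57.7, 165 UMIs in 37 cells) in the early library and 9.91 CPM (6.47 to 14.5, 26 UMIs in 10 cells) in the late library, and id3, an inhibitor of E proteins, was lower, with 212.4 CPM (197.1 to 228.7, 708 UMIs in 251 cells) in the early library and 473.7 CPM (447.7 to 500.7, 1243 UMIs in 251 cells) in the late library. tcf7 had 348.6 CPM (early) and 444.3 CPM (late), bcl11ba, which fixes T-cell commitment, 87.3 CPM (early) and 98.7 CPM (late), and gata3 33.6 CPM (early) and 34.3 CPM (late), all within 2-fold. The regulatory T-cell list had 7 features with enough UMIs and none past 2-fold: foxp3a, its defining factor, had 150.6 CPM (early) and 200.1 CPM (late) in 68 early and 45 late cells, and the receptor tnfrsf18 had 1527.2 CPM (early) and 773.9 CPM (late).

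Of the recombination list, rag1 and dntt were measured well enough in the T-lineage gate, both through their early UMIs alone, so that they could not have been called lower. rag1 had 25.2 CPM (20.1 to 31.2, 84 UMIs in 28 cells) in the early library and 1.52 CPM (0.415 to 3.9, 4 UMIs in 1 cell) in the late library, a ratio of 2.21, and all late UMIs were in 1 cell. dntt had 17.4 CPM (13.2 to 22.5, 58 UMIs in 19 cells) in the early library and 4.95 CPM (2.64 to 8.47, 13 UMIs in 3 cells) in the late library, a ratio of 1.17. The other 7 members of that list had too few UMIs. The cell cycle list had 18 features with enough UMIs, of which 2 were higher and 1 lower, with a median of 0.20. The histone gene h2ax had 326.7 CPM (early) and 98.7 CPM (late), and the proliferation marker mki67 had 93.6 CPM (early) and 84.6 CPM (late), within 2-fold. rrm2, a subunit of ribonucleotide reductase, which makes the building blocks of DNA, stands on 2 features that went opposite ways. ENSDARG00000078069 had 271.5 CPM (254.1 to 289.8, 905 UMIs in 43 cells) in the early library and 0.762 CPM (0.0923 to 2.75, 2 UMIs in 2 cells) in the late library. ENSDARG00000020711 had 0.9 CPM (0.186 to 2.63, 3 UMIs in 3 cells) in the early library and 149.8 CPM (135.3 to 165.3, 393 UMIs in 15 cells) in the late library. Summed over both, rrm2 had 272.4 CPM in early and 150.5 CPM in late T-lineage cells, a ratio of 0.84. Reads of such copies can be split by the counting, so neither ratio alone is taken as that of the gene.

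Some effector cytokines of the T-lineage gate were lower with the early label, on few cells. Of 5 type 2 and type 3 effectors with enough UMIs, osm, il4 and il23r were lower and none higher, with a median of -1.08. il4, the signature cytokine of type 2 helper cells, had 44.7 CPM (37.8 to 52.5, 149 UMIs in 31 cells) in the early library and 136.0 CPM (122.3 to 150.9, 357 UMIs in 23 cells) in the late library. osm had 2.7 CPM (1.23 to 5.13, 9 UMIs in 1 cell) in the early library and 177.6 CPM (161.8 to 194.5, 466 UMIs in 8 cells) in the late library, and had enough UMIs through the late library alone. il23r, a receptor of type 3 cells, had 21 CPM (16.4 to 26.5, 70 UMIs in 55 cells) in the early library and 49.9 CPM (41.7 to 59.2, 131 UMIs in 78 cells) in the late library. il13 had a ratio of -0.13. Of the inflammatory list, tnfa, tnfb and il12bb were lower and il1b higher: tnfa had 25.2 CPM (early) and 77.0 CPM (late) and tnfb 59.4 CPM (early) and 125.4 CPM (late). ccr7, which guides mature T cells to lymphoid tissue, was lower, with 31.5 CPM (25.8 to 38.1, 105 UMIs in 73 cells) in the early library and 86.9 CPM (76.0 to 98.9, 228 UMIs in 120 cells) in the late library. The chemokine ccl20a.3 had 201.6 CPM (186.7 to 217.5, 672 UMIs in 56 cells) in the early library and 665.0 CPM (634.1 to 696.9, 1745 UMIs in 28 cells) in the late library. Of 10 interferon-stimulated features, isg15 and gig2i were higher. isg15 had 124.5 CPM (early) and 45.0 CPM (late), and gig2i had 54.9 CPM (early) and 20.2 CPM (late).

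Of the further genes with the highest ratios in this gate, several were concentrated in few cells or are genes of other cell types. ighv1-4, an immunoglobulin heavy-chain variable gene, had 473 UMIs (early) and 1 UMI (late), with 97.7% of the early UMIs in 1 cell and a ratio of 0.73 without it. cxcl8a, a neutrophil attractant, had 137 UMIs (early) and 1 UMI (late), with 58.4% in 1 cell. The protease ctsla, a macrophage gene, had 66.9 CPM (early) and 1.91 CPM (late). lygl1, a lysozyme gene, had 53.1 CPM (early) and 4.19 CPM (late). Of the macrophage list 4 of 9 features with enough UMIs were higher here, against 2.84% of all features compared. The summed level of the 8 myeloid gate genes was 42.3 CPM in early and 6.86 CPM in late T-lineage cells, with 1 and 4 of them at 0, and its part in these ratios was not tested. rasa4, a Ras GTPase-activating gene, had 129.3 CPM (117.4 to 142.1, 431 UMIs in 52 cells) in the early library and 5.33 CPM (2.92 to 8.95, 14 UMIs in 5 cells) in the late library and krt18b, a keratin, 45.0 CPM (early) and 2.29 CPM (late). ighv1-4, cxcl8a, ctsla, lygl1, rasa4 and krt18b had enough UMIs through the early library alone, so they could not have been called lower.

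Among the genes lowest in the early T-lineage gate, kif26ba was found in many late cells and in no early one. kif26ba had 0 UMIs in the early library and 58.3 CPM (49.4 to 68.3, 153 UMIs in 93 cells) in the late library, at least 64.8-fold lower against a floor of 3 UMIs in the early library. The cadherin cdh29 had 4.8 CPM (early) and 34.7 CPM (late) and tle3b, a Groucho-type corepressor, 12.3 CPM (early) and 52.2 CPM (late). Of the Ly6 family of surface proteins, ly6m2 had 6.3 CPM (early) and 40.4 CPM (late). ly6m5 had 8.1 CPM (early) and 37.0 CPM (late). egfl6 had 2.4 CPM (early) and 19.4 CPM (late) and adck1 13.8 CPM (early) and 52.2 CPM (late). kif26ba, cdh29, tle3b, ly6m2, ly6m5, egfl6 and adck1 had enough UMIs through the late library alone, so they could not have been called higher. fthl28, a ferritin-like gene, had 113 UMIs (early) and 361 UMIs (late), but 94.7% of the late UMIs lay in 1 cell, and without the top cell of each library its ratio of -1.87 became 1.59.

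In the wider lymphoid group, which contains all cells of the T-lineage gate, some effector cytokines were lower with the early label. Of 8022 features, 128 (1.6%) were higher and 113 (1.41%) lower, with a median of 0.11. Of 6 type 2 and type 3 effectors with enough UMIs, 4 were lower. osm had 2.53 CPM (1.64 to 3.73, 25 UMIs in 7 cells) in the early library and 194.8 CPM (183.4 to 206.6, 1099 UMIs in 23 cells) in the late library. il13, a type 2 cytokine, had 13.9 CPM (11.6 to 16.4, 137 UMIs in 14 cells) in the early library and 103.2 CPM (94.9 to 111.9, 582 UMIs in 23 cells) in the late library, and il4 had 47.6 CPM (43.4 to 52.1, 470 UMIs in 105 cells) in the early library and 123.4 CPM (114.4 to 132.9, 696 UMIs in 47 cells) in the late library. il17a/f3, an interleukin-17 gene, had 13 UMIs (early) and 51 UMIs (late). osm and il17a/f3 had enough UMIs through the late library alone. The immediate-early genes egr3, egr1, fosb and nr4a1, which report recent stimulation of a cell, were lower and none of the 26 features of their list compared was higher. egr1 had 50.4 CPM (early) and 140.9 CPM (late) and was found in 218 early and 297 late cells. nr4a1, induced by antigen receptor signals, had 217.5 CPM (early) and 444.9 CPM (late). Of the chemokines, cxcl32b.1 had 134.5 CPM (early) and 335.5 CPM (late), and ccl38a.4 had 233 UMIs (early) and 759 UMIs (late) with 66.0% of late UMIs in 1 cell. il1b was higher, with 61.2 CPM (early) and 16.1 CPM (late). tcf7 had 377.6 CPM (early) and 392.9 CPM (late) and the granzyme gzma 206.3 CPM (early) and 248.3 CPM (late), both within 2-fold.

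In the NK/ILC gate, 184 of 2677 features (6.87%) were higher and 41 (1.53%) lower, with a median of 0.14. The early gate held 1510948 UMIs against 625323, and with UMIs thinned to equal totals 65 were higher and 45 lower. Of 8 cytotoxic features with enough UMIs outside the gate's own list none passed 2-fold, with a median of -0.45, against 8.4% of all features compared. Of the gate's own genes, which were left out of that count, the NK-lysin gene nkl.3 had 301.1 CPM (274.1 to 330.1, 455 UMIs in 72 cells) in the early library and 40 CPM (25.9 to 59.0, 25 UMIs in 3 cells) in the late library. nkl.4 went the other way, with 484 UMIs in 82 early cells and 343 UMIs in 18 late cells, a larger part of the late gate total. The 7 gate genes summed to 2213.8 CPM (early) and 2486.7 CPM (late). These genes selected the cells, so their levels there are no independent result. gzmk, a granzyme, had 409.7 CPM (early) and 530.9 CPM (late), gzma 448.1 CPM (early) and 703.6 CPM (late) and prf1.1, a perforin, 112.5 CPM (early) and 147.1 CPM (late). Some immediate-early genes were lower in this gate, whose cells are all part of the wider lymphoid group, so this is no second observation. egr1 had 80.7 CPM (67.1 to 96.4, 122 UMIs in 42 cells) in the early library and 283.1 CPM (242.9 to 328.0, 177 UMIs in 44 cells) in the late library, egr3 52.3 CPM (early) and 172.7 CPM (late), fosb 104.6 CPM (early) and 313.4 CPM (late) and nr4a1 293.2 CPM (early) and 724.4 CPM (late), 4 lower and 1 higher (atf3) of 20 features compared. With them stood gadd45ba, a stress-induced gene, with 436.2 CPM (403.5 to 470.8, 659 UMIs in 129 cells) in the early library and 1749.5 CPM (1647.3 to 1856.3, 1094 UMIs in 79 cells) in the late library, and birc2, an inhibitor of apoptosis, with 34.4 CPM (25.7 to 45.1, 52 UMIs in 45 cells) in the early library and 174.3 CPM (143.1 to 210.3, 109 UMIs in 49 cells) in the late library. skilb, a repressor of TGF-beta signalling, had 36.4 CPM (early) and 143.9 CPM (late) and the chemokine cxcl32b.1 280.6 CPM (early) and 909.9 CPM (late). The linker histone gene h1-10 had 358.7 CPM (early) and 1082.6 CPM (late) and sytl3, which acts in vesicle transport, 343.5 CPM (early) and 1025.1 CPM (late). creb5b had 34.4 CPM (early) and 115.1 CPM (late), with 55.6% of late UMIs in 1 cell.

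Some cell cycle genes of the NK/ILC gate were higher with the early label. Of these, pcna, stmn1a and rrm2 had enough UMIs through the early library alone. The DNA clamp pcna had 160.8 CPM (141.2 to 182.4, 243 UMIs in 106 cells) in the early library and 44.8 CPM (29.8 to 64.7, 28 UMIs in 20 cells) in the late library, the tubulin tuba8l 219.1 CPM (early) and 83.2 CPM (late) and stmn1a, a microtubule regulator, 60.2 CPM (early) and 14.4 CPM (late). rrm2 (ENSDARG00000078069) had 141 UMIs (early) and 0 UMIs (late), at least 19.5-fold higher against the floor. The chemokine cxcl19 had 156.9 CPM (137.5 to 178.1, 237 UMIs in 107 cells) in the early library and 8.0 CPM (2.6 to 18.7, 5 UMIs in 4 cells) in the late library. ccl20a.3 had 159 UMIs (early) and 1 UMI (late), with 78.0% of early UMIs in 1 cell. Both chemokines had enough UMIs through the early library alone. Some myeloid genes were also higher in this early gate, each with enough UMIs through the early library alone. grn1 had 95 UMIs (early) and 0 UMIs (late), mpeg1.1, a macrophage perforin, 57 UMIs (early) and 0 UMIs (late), and the neutrophil peroxidase mpx 70 UMIs (early) and 1 UMI (late). The myeloid factor spi1b was lower, with 58.2 CPM (early) and 121.5 CPM (late). The 8 myeloid gate genes summed to 107.2 CPM in early and 124.7 CPM in late cells, with 1 and 5 at 0, and their part was not tested.

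In the B-lineage gate a pair of light-chain variable genes, a lectin-like receptor gene and a class I gene were lower with the early label, and division genes higher. Of 1801 features, 76 (4.22%) were higher and 53 (2.94%) lower, with a median of 0.05. Under median-of-ratios scaling, which moved the median by -0.24, the counts were 45 higher and 107 lower. Of 11 B-cell and immunoglobulin features with enough UMIs, 2 were lower and none higher. igl3v5 had 713.5 CPM (646.8 to 785.2, 419 UMIs in 118 cells) in the early library and 2467.9 CPM (2378.1 to 2560.4, 2843 UMIs in 250 cells) in the late library and igl4v8 (ENSDARG00000079843) 561.9 CPM (502.9 to 625.9, 330 UMIs in 92 cells) in the early library and 1807.3 CPM (1730.5 to 1886.7, 2082 UMIs in 238 cells) in the late library. The light-chain constant igic1s1 had 3528.1 CPM (early) and 3165.9 CPM (late), the heavy-chain variable ighv1-4 (ENSDARG00000096355) 6078.9 CPM (early) and 5669.4 CPM (late), and cd37, a tetraspanin of B cells, 325.2 CPM (early) and 490.5 CPM (late). mhc2a had 2901.5 CPM (early) and 3080.8 CPM (late) and cd74a, the class II invariant chain, 5023 UMIs (early) and 11329 UMIs (late). In the late library 1 cell held 1061 igl3v5 UMIs. The variable genes stem from rearranged clones, and their copies are alike in sequence, so reads can be split among them.

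illr1, a lectin-like receptor gene, separated the B-lineage gates, with 3.41 CPM (0.412 to 12.3, 2 UMIs in 2 cells) in the early library and 361.1 CPM (327.2 to 397.5, 416 UMIs in 172 cells) in the late library. cdh29 had 3.41 CPM (0.412 to 12.3, 2 UMIs in 2 cells) in the early library and 93.8 CPM (76.9 to 113.2, 108 UMIs in 68 cells) in the late library. mhc1zda, a Z-lineage MHC class I gene, had 17.0 CPM (8.17 to 31.3, 10 UMIs in 9 cells) in the early library and 74.7 CPM (59.7 to 92.2, 86 UMIs in 71 cells) in the late library. ccl35.2 had 34.1 CPM (early) and 169.3 CPM (late), il15l, an interleukin-15-like cytokine, 6 UMIs (early) and 96 UMIs (late), and grb10b, an adaptor, 13.6 CPM (early) and 65.1 CPM (late). Of 18 immediate-early and heat shock features, 2 were lower and 2 higher. egr1 had 39.2 CPM (early) and 151.0 CPM (late), and fosb had 40.9 CPM (early) and 156.3 CPM (late). The heat shock genes dnajb1b and hsp90aa1.2 were the higher pair. dnajb1b had 354.2 CPM (early) and 169.3 CPM (late), and hsp90aa1.2 had 224.8 CPM (early) and 66.0 CPM (late). clic2 had 2 UMIs (early) and 58 UMIs (late) and RUNDC1 17 UMIs (early) and 135 UMIs (late). ighv4-3 had 5 UMIs (early) and 74 UMIs (late), with 75.7% of late UMIs in 1 cell. osm and il13 were also lower, but their late UMIs were in 2 and 3 cells. illr1, cdh29, mhc1zda, ccl35.2, il15l, grb10b, egr1, clic2, RUNDC1, ighv4-3, osm and il13 had enough UMIs through the late library alone. They could therefore not have been called higher.

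On the higher side of the B-lineage gate, 4 of 5 cell cycle features passed 2-fold, of which rrm2 had enough UMIs through the early library alone. pcna had 226.5 CPM (189.6 to 268.4, 133 UMIs in 45 cells) in the early library and 67.7 CPM (53.5 to 84.5, 78 UMIs in 50 cells) in the late library and tuba8l 166.9 CPM (early) and 59.9 CPM (late), while stmn1a had 263.9 CPM (early) and 52.1 CPM (late), with 65.0% of its late UMIs in 1 cell, and rrm2 (ENSDARG00000078069) had 95 UMIs (early) and 0 UMIs (late), its early UMIs in 3 cells. cxcl19 had 524.5 CPM (467.5 to 586.4, 308 UMIs in 61 cells) in the early library and 39.9 CPM (29.2 to 53.3, 46 UMIs in 6 cells) in the late library. cgas, a sensor of cytosolic DNA, had 90.2 CPM (early) and 16.5 CPM (late) and the fucosidase fuca1.1 120.9 CPM (early) and 20 CPM (late). hbegfa, a growth factor, had 126.0 CPM (early) and 33.0 CPM (late) and rasgef1ba 107.3 CPM (early) and 13.0 CPM (late). tnfrsf9b had 50 UMIs (early) and 19 UMIs (late), and its ratio was 0.03 without cells of high doublet score. Genes of other cell types were higher in the same gate: 4 of 9 macrophage features (ctsz, cebpb, lgmn and ctsd) with none lower and a median of 0.64, and the granzyme gzma, with 52 UMIs (early) and 1 UMI (late), its early UMIs in 4 cells. Their part in the other ratios was not tested. The receptor gene tnfrsf9a was higher too, with 272 UMIs (early) and 29 UMIs (late) in 9 early and 9 late cells. hbba1 and hbaa1 led the ratios, with 86.7% of the early hbba1 (ENSDARG00000089087) UMIs in 1 cell. cxcl19, cgas, fuca1.1, hbegfa, rasgef1ba, tnfrsf9b, gzma, tnfrsf9a, hbba1 and hbaa1 had enough UMIs through the early library alone. They could therefore not have been called lower.

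In the myeloid gate, several lysosomal and division genes and the complement gene c1qc were higher, and a CC chemokine and a pair of class I genes lower, with the early label. Of 6158 features, 367 (5.96%) were higher and 68 (1.1%) lower, with a median of 0.24. Median-of-ratios scaling moved the median by -0.17 and gave 233 higher and 107 lower. Of 22 macrophage features with enough UMIs, 8 were higher and 4 lower, with a median of 0.65. These are genes of lysosomes, of the complement system and of mature macrophages. ctsd, a lysosomal cathepsin, had 1957.2 CPM (1917.4 to 1997.6, 9208 UMIs in 428 cells) in the early library and 561.4 CPM (527.4 to 597.1, 1014 UMIs in 100 cells) in the late library. ctsla, another cathepsin, had 962.2 CPM (934.4 to 990.7, 4527 UMIs in 315 cells) in the early library and 271.9 CPM (248.3 to 297.0, 491 UMIs in 76 cells) in the late library. The complement chain c1qc had 1958.3 CPM (1918.5 to 1998.7, 9213 UMIs in 368 cells) in the early library and 842.1 CPM (800.3 to 885.6, 1521 UMIs in 76 cells) in the late library. All 3 passed 2-fold, whereas c1qb, another chain of the same complement protein, had 1459.4 CPM (early) and 924.1 CPM (late) and did not. The macrophage transcription factor mafbb had 574.3 CPM (552.9 to 596.4, 2702 UMIs in 256 cells) in the early library and 173.3 CPM (154.6 to 193.6, 313 UMIs in 51 cells) in the late library. The protease legumain, lgmn, had 1583.8 CPM (early) and 698.2 CPM (late). havcr1, a receptor for dying cells, had 237.4 CPM (early) and 91.9 CPM (late), and slc40a1, the iron exporter ferroportin, 55.5 CPM (early) and 18.8 CPM (late). Of the 4 lower members, hmox1a, which degrades haem, was widespread, with 597.1 CPM (575.2 to 619.6, 2809 UMIs in 292 cells) in the early library and 1743.0 CPM (1682.6 to 1804.9, 3148 UMIs in 95 cells) in the late library. The other 3 came from few late cells: apoc1 had 541 UMIs (early) and 1732 UMIs (late) and apoeb 83 UMIs (early) and 108 UMIs (late), with the late UMIs of each in 1 cell, and grn2 had 35 UMIs (early) and 3951 UMIs (late), the late ones in 4 cells.

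None of 8 dendritic features with enough UMIs passed 2-fold, with a median of 0.1. With 7.06% of all features past 2-fold in this gate, that count is not read as a result about the list. flt3, a growth factor receptor of dendritic cells, had 78.9 CPM (early) and 73.6 CPM (late), xcr1a.1 38.5 CPM (early) and 46.5 CPM (late) and irf8 172.4 CPM (early) and 140.6 CPM (late). Class II genes stayed within 2-fold, with 33870.2 CPM (early) and 36031.6 CPM (late) for cd74a and 11425.7 CPM (early) and 13181.4 CPM (late) for mhc2a. Of 20 MHC features, mhc1zda and mhc1zea, both of the Z lineage, were lower. mhc1zda had 13.2 CPM (10.1 to 16.9, 62 UMIs in 57 cells) in the early library and 73.6 CPM (61.7 to 87.3, 133 UMIs in 80 cells) in the late library and mhc1zea 16.6 CPM (13.1 to 20.7, 78 UMIs in 65 cells) in the early library and 59.8 CPM (49.1 to 72.2, 108 UMIs in 72 cells) in the late library. ccl35.2 had 124.6 CPM (114.7 to 135.1, 586 UMIs in 113 cells) in the early library and 2556.3 CPM (2483.1 to 2631.1, 4617 UMIs in 103 cells) in the late library, a ratio of -4.31. f13a1a.1, a coagulation factor XIII gene, had 24.7 CPM (early) and 122.4 CPM (late), anxa1a, an annexin that limits inflammation, 24.4 CPM (early) and 112.4 CPM (late), and ccl19a.1, a ligand of Ccr7, 9.35 CPM (early) and 48.7 CPM (late). cdh29 had 3.61 CPM (early) and 33.8 CPM (late), the Ly6 gene ly6m5 6.59 CPM (early) and 49.8 CPM (late), and ly6m2 11.3 CPM (early) and 50.9 CPM (late). lgals9l1, a galectin, had 31.7 CPM (early) and 105.8 CPM (late), with 53.9% of late UMIs in 1 cell. cdh29, ly6m5 and ccl19a.1 had enough UMIs through the late library alone.

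Some division genes were higher in the early myeloid gate. Of 20 cell cycle features 9 were higher and 1 lower, with a median of 0.83. mki67 had 35.5 CPM (30.3 to 41.3, 167 UMIs in 31 cells) in the early library and 7.75 CPM (4.24 to 13.0, 14 UMIs in 3 cells) in the late library and cdk1 25.7 CPM (early) and 6.09 CPM (late). ube2c (ENSDARG00000114670) had 33.4 CPM (28.4 to 39.0, 157 UMIs in 34 cells) in the early library and 1.66 CPM (0.343 to 4.85, 3 UMIs in 3 cells) in the late library, and aspm, a spindle gene, had 105 UMIs (early) and 0 UMIs (late). mki67, cdk1, ube2c and aspm had enough UMIs through the early library alone. Cells with UMIs of at least 2 division genes were 37 of 531 early (6.97%; 4.95 to 9.48) and 3 of 168 late (1.79%; 0.370 to 5.13). After thinning they were 7 of 293 and 0 of 66, a difference of 2.39 points (-3.23 to 4.86), whose counting interval includes 0. The chemokines cxcl19, ccl34b.1 and cxcl8b.1 were higher. cxcl19 had 7028.8 CPM (early) and 3214.6 CPM (late), ccl34b.1 2438.9 CPM (early) and 1060.8 CPM (late) and cxcl8b.1 31.5 CPM (early) and 2.77 CPM (late). cxcl11.5 had 378 UMIs (early) and 18 UMIs (late) in 17 early and 8 late cells, but its ratio of 2.51 turned to -0.12 with at least 3 gate genes. atp5mea, an ATP synthase subunit, had 84.0 CPM (75.9 to 92.7, 395 UMIs in 211 cells) in the early library and 6.64 CPM (3.43 to 11.6, 12 UMIs in 12 cells) in the late library. cxcl11.5 and atp5mea had enough UMIs through the early library alone. dicp1.1, a diverse immunoglobulin-domain receptor, stands on 3 features. ENSDARG00000111013 had 91.4 CPM (83.0 to 100.5, 430 UMIs in 194 cells) in the early library and 0.554 CPM (0.014 to 3.08, 1 UMI in 1 cell) in the late library, while the sum of the 3 had 190.2 CPM and 113.5 CPM, within 2-fold.

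Some T-cell genes were also higher in the early myeloid gate, 3 of 9 T-cell receptor and coreceptor features (lck, cd8b and cd247) with none lower. cd8b had 138.2 CPM (127.7 to 149.2, 650 UMIs in 68 cells) in the early library and 19.4 CPM (13.5 to 27.0, 35 UMIs in 4 cells) in the late library and tcf7 21 CPM (17.1 to 25.6, 99 UMIs in 42 cells) in the early library and 0 UMIs in the late library. cd8a, a T-lineage gate gene, had 253.4 CPM (239.2 to 268.2, 1192 UMIs in 121 cells) in the early library and 140.1 CPM (123.3 to 158.4, 253 UMIs in 13 cells) in the late library, within 2-fold. sla2, an adaptor that dampens antigen receptor signals, had 294 UMIs (early) and 3 UMIs (late). bcl11ba had 63 UMIs (early) and 0 UMIs (late) and rorc, a type 3 factor, 60 UMIs (early) and 0 UMIs (late). cd8b, tcf7, sla2, bcl11ba and rorc had enough UMIs through the early library alone. The 12 T-lineage gate genes summed to 367.5 CPM in early and 193.2 CPM in late cells of the myeloid gate, against 891.1 CPM and 811.3 CPM in the T-lineage gate, with 3 and 5 of them at 0 in the myeloid gate. Of these myeloid-gate sums cd8a alone made 253.4 CPM (early) and 140.1 CPM (late). Its early UMIs were 1192 in the myeloid gate and 384 in the T-lineage gate, its late UMIs 253 and 350. It had a UMI in 22.8% of early and 7.74% of late myeloid-gate cells, and in 18.1% and 17.7% of T-lineage cells. Of the 121 early and 13 late myeloid-gate cells with a cd8a UMI, 39 and 4 had no cd4-1 UMI. The sums are therefore not read as a share of T cells. The part of T cells in this gate was not tested. Leaving out cells of high doublet score kept 517 of 531 early and 167 of 168 late cells of the myeloid gate. None of the 20 highest and lowest ratios named there then left its side of 2-fold. With so few cells removed, this cannot decide whether T cells or mixed cells lie in the gate.

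**Figure D3:**
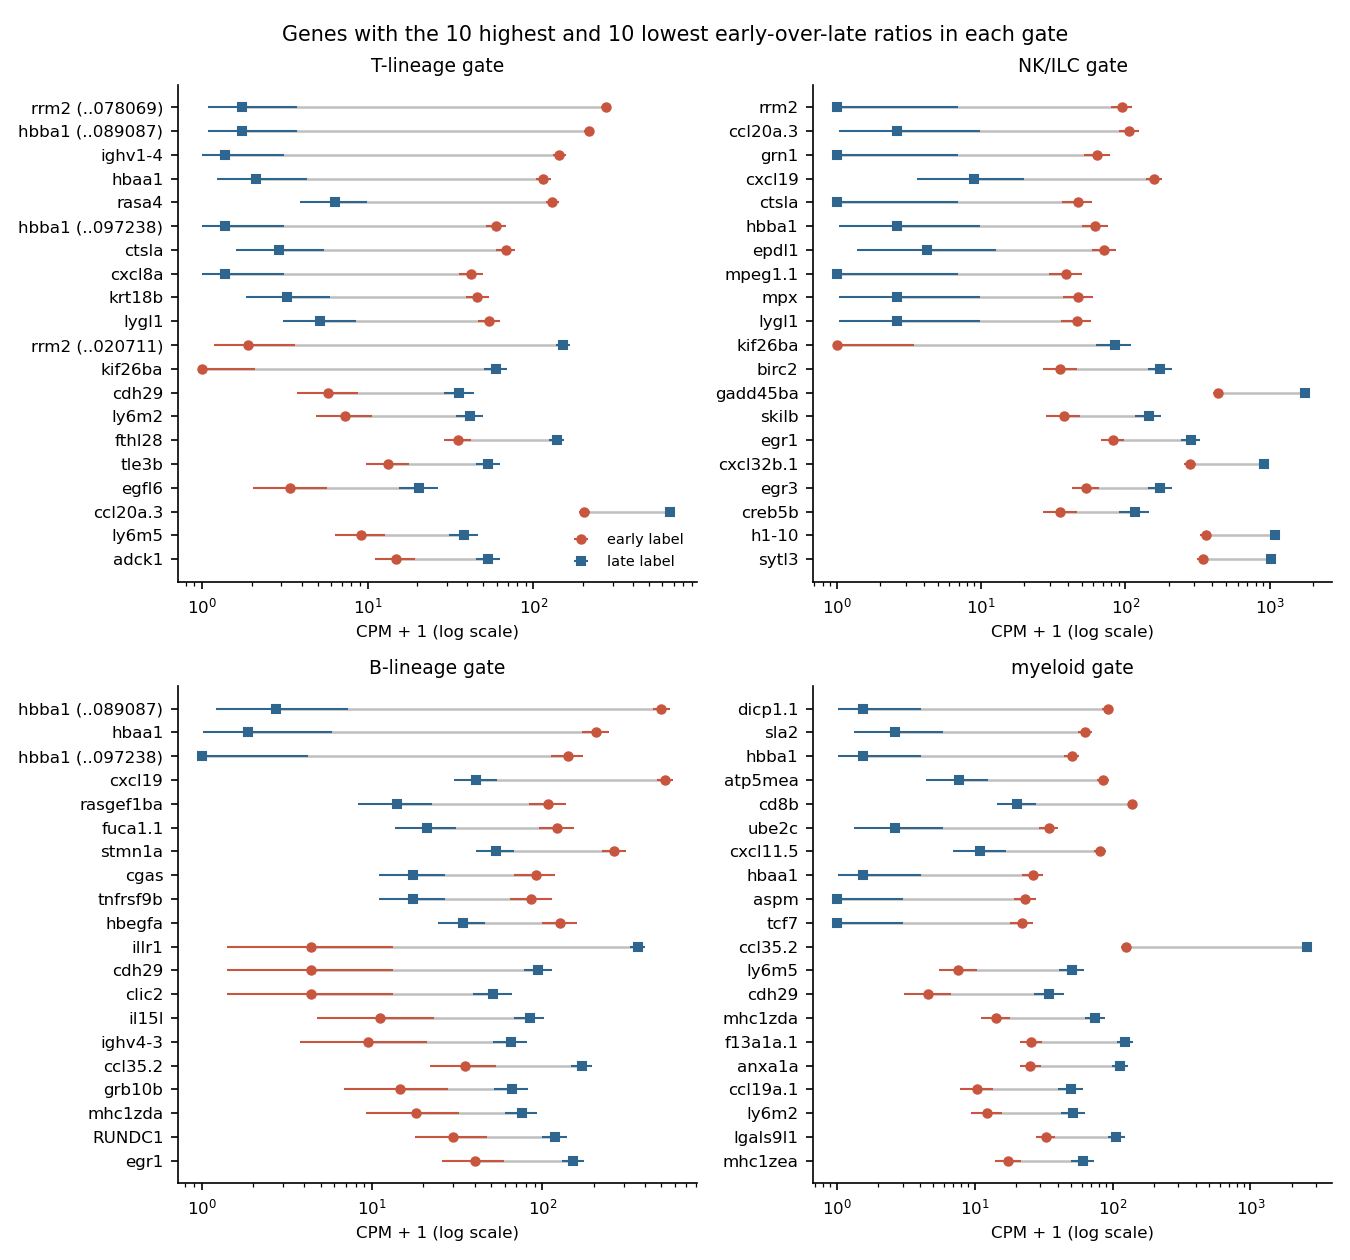
CPM + 1 (log axes) of the 10 features with the highest and the 10 with the lowest early-over-late ratios in each of 4 gates, for the early (circles) and late (squares) label, with exact 95% Poisson intervals. In the B-lineage gate illr1 stands at 3.41 CPM in early and 361.1 CPM in late cells, and in the myeloid gate ccl35.2 at 124.6 CPM and 2556.3 CPM.

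Over all features compared, 4.74% passed 2-fold in the T-lineage gate and 7.06% in the myeloid gate. In the T-lineage gate none of 21 proteasome features and 1 of 21 immediate-early and heat shock features (hsp90aa1.2, lower) passed 2-fold, and in the myeloid gate 1 of 21 proteasome features and 1 of 14 interferon-stimulated features did. These counts are near those shares and are not read as results about the lists. The immediate-early and heat shock list had 6 of 29 features higher and none lower in the myeloid gate, with a median of 0.13, against 5.96% of all features higher there. Of 20 MHC features in the T-lineage gate, mhc1zfa was higher, with 15.9 CPM (11.9 to 20.8, 53 UMIs in 46 cells) in the early library and 2.67 CPM (1.07 to 5.5, 7 UMIs in 7 cells) in the late library, and mhc1zda lower, with 37.5 CPM (31.2 to 44.7, 125 UMIs in 99 cells) in the early library and 81.5 CPM (71.0 to 93.2, 214 UMIs in 147 cells) in the late library. mhc1zfa had enough UMIs through the early library alone, so it could not have been called lower. The opposite directions of these Z-lineage genes are therefore not read as a contrast. Haemoglobin features were higher in each of the T-lineage, NK/ILC, B-lineage and myeloid gates.

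**Figure D4:**
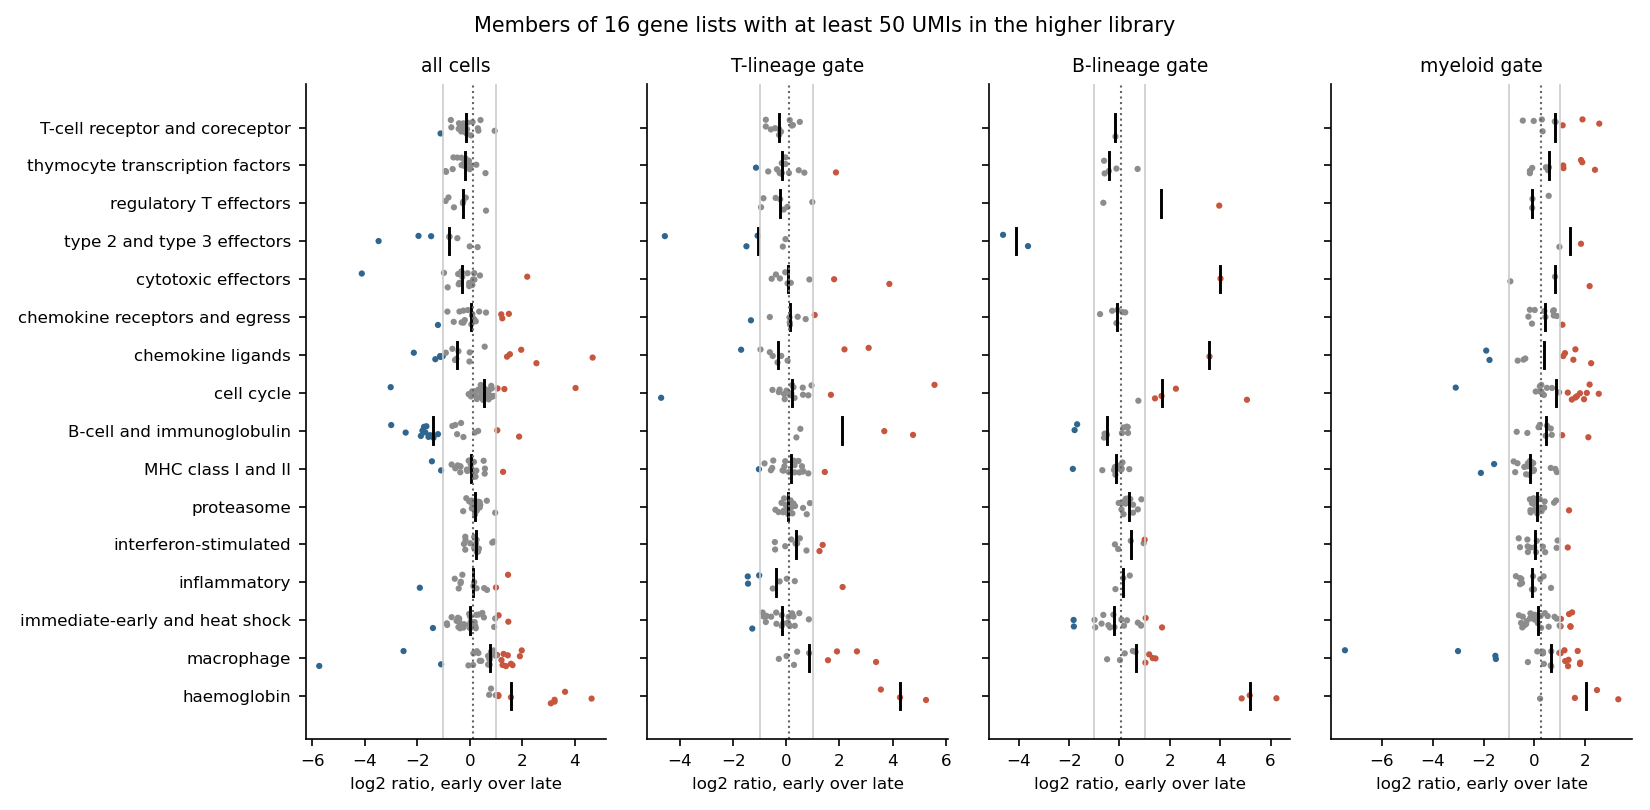
log2 ratios (early over late) of the members of 16 gene lists with enough UMIs, in all cells and 3 gates. Each dot is a feature, coloured past 2-fold, black bars are list medians and the dotted line is the median of all features compared. In all cells the B-cell and immunoglobulin list has its median at -1.38, and in the T-lineage gate the T-cell receptor and coreceptor list at -0.27.

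Some features were higher or lower in every gate compared. Of 1521 features with enough UMIs in all of the T-lineage, NK/ILC, B-lineage and myeloid gates, 7 were higher in all 4 gates, namely cxcl19, hbba1 (ENSDARG00000089087), rpl26, fam53b, rrm2 (ENSDARG00000078069), atp5f1b and si:ch211-5k11.8, and si:ch211-11p18.6 was lower in all 4. kif26ba was nearly absent from the early library in all cells. cdh29 and mhc1zda were lower in each of the T-lineage, B-lineage and myeloid gates, and illr1 in the B-lineage gate, the 1 of these gates where it had enough UMIs. Of the 11364 features compared in all cells, 40 had at most 3 UMIs in the late and 6 at most 3 UMIs in the early library. The early cells held 22950411 UMIs against 10797350 in the late ones. Near absence is thus reached more easily in the late library, so these counts are not set against each other. The labels give no strain or clutch, so differences in such features cannot be told apart from differences between the fish of the libraries.

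The same comparison was set beside the other 3 adult tissues, whose libraries carry the same labels, in all cells. Of the 236 features higher in thymus, 193 had enough UMIs in the tesselated lymphoid network (TLN), and 30 (15.5%) of these were higher there too, against 0.81% of all features compared there. In intestine it was 28 of 212 (13.2%, against 0.949%) and in kidney marrow 16 of 222 (7.21%, against 0.504%). The opposite way by 2-fold went 0 of the 193 in TLN, 18 of the 212 in intestine and 7 of the 222 in kidney marrow. Of all features compared in these tissues 4.21%, 3.55% and 0.549% were lower. Of the 190 lower in thymus, 19 of 170 (11.2%, against 3.55%) were lower in intestine. The opposite way by 2-fold went 36 of these 170, against 0.949% of all features higher there. In TLN 5 of 135 (3.7%, against 4.21%) were lower, and 17 of the 135 went the opposite way, against 0.81% of all features higher there. In kidney marrow 5 of 177 (2.82%, against 0.549%) were lower, and 5 of the 177 went the opposite way, against 0.504% of all features higher there. In intestine and TLN more of the features lower in thymus thus went the opposite way than the same way.

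atp5mea was higher with the early label in all 4 tissues, with ratios of 2.55 in thymus, 1.2 in kidney marrow, 2.16 in intestine and 2.09 in TLN, and so was cxcl19, with 1.42, 1.35, 1.21 and 1.1. kif26ba was lower by 2-fold in thymus (-3.15) and intestine (-2.02), with -0.15 in kidney marrow and -0.49 in TLN. cdh29 had -2.47 in thymus and -2.44 in intestine, with -0.64 in kidney marrow and -0.45 in TLN. rrm2 (ENSDARG00000078069) had 4.03 in thymus, 1.31 in kidney marrow, 0.81 in intestine and 0.69 in TLN. In thymus its other copy (ENSDARG00000020711) had -3.01, and the sum of both 1.09. Among the effectors, il13 had 594 UMIs in early and 1236 UMIs in late thymus but 8475 and 1231 in intestine. osm had a ratio of -3.47 in thymus and 0.92, within 2-fold, in intestine. No difference between tissues was tested, and whether tissues came from the same fish is not given in the labels.

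**Figure D5:**
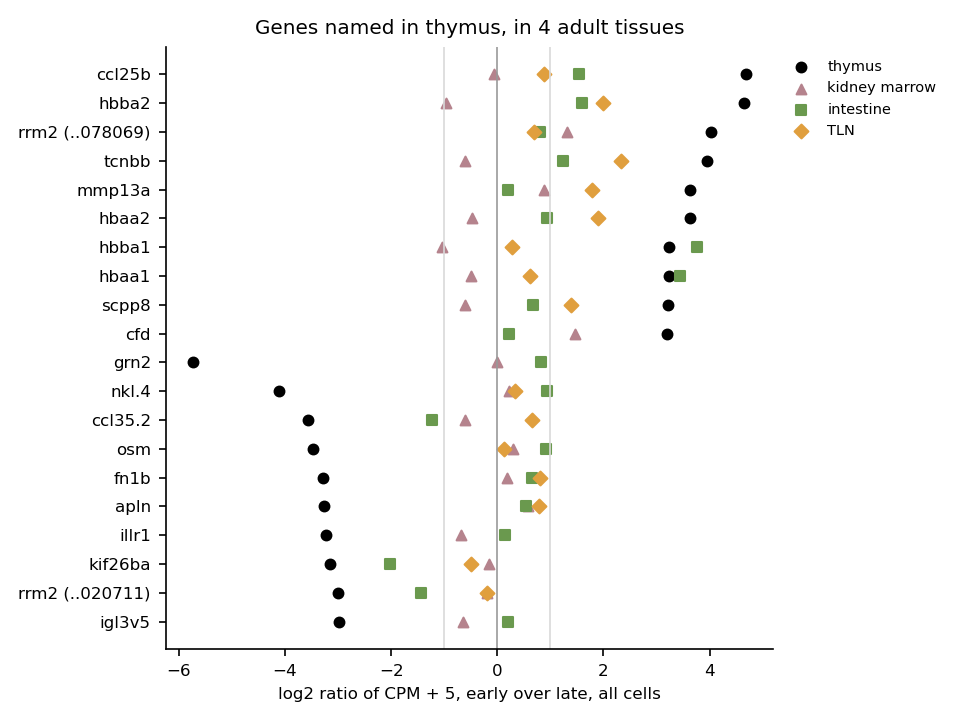
log2 ratios (early over late, all cells) of the 20 features named in thymus, in thymus, kidney marrow, intestine and TLN, where at least 50 UMIs were found in 1 of the libraries. The thymus points lie between -5.73 (grn2) and 4.68 (ccl25b), and all kidney marrow points lie nearer 0 than the thymus point of the same feature.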

How the data were processed

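The authors deposited counts: whole-number UMI counts per feature and cell barcode, from Chromium 3′ kit v4 libraries per the labels' protocols. Cell Ranger 9.0.0 is named per the file headers of the adult libraries, and 8.0.1 with GRCz11 per the submitters' processing notes. No value was normalized before deposit. All 27758 features were used, and both libraries came as filtered barcodes.

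Cells were gated on 8 lists of marker genes, with at least 2 distinct genes and no tie. UMIs were summed per library and gate and scaled to CPM, and ratios of CPM + 5 were formed early over late for features with at least 50 UMIs in the higher library. Genes of a gate were left out of its own comparison. With 1 library per group no test was made. Named genes are the 10 highest and the 10 lowest ratios at 2-fold or more with a symbol and at least 10 cells, plus members of 22 gene lists. Which list members are named, and genes given as within 2-fold examples, were chosen after their values were seen. The members and lists were chosen with earlier results of these data known, and the wider lymphoid and neutrophil gates were added after seeing the data. Doublets stayed in. As an alternative, the cells with the highest simulated doublet scores, 74 early and 13 late, were left out. The summation and ratio steps were tested on simulated data. Python 3.11.15, numpy 2.4.6, scipy 1.17.1, pandas 2.3.3 and scikit-learn 1.9.0 were used. Symbols on several features (549) are named with their identifiers where copies were compared. No sequences were used here.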

Additional observations from a re-analysis of the deposited data

Results flagged for a closer look

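Of the 501 features that were named by ratio or belong to the gene lists, some had ratios past 2-fold in opposite directions, in 7 cases between gates of the thymus and in 14 cases between all thymus cells and all cells of another tissue. With 1 library per label these differences were not tested. Ratios are early over late, on the log2 scale.

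Between gates, gadd45ba had a ratio of -1.99 in the NK/ILC gate and 1.06 in the B-lineage gate. fthl28 had -1.87 in the T-lineage gate and 2.7 in the NK/ILC gate, and 94.7% of its late T-lineage UMIs were in 1 cell. ccl20a.3 had -1.7 in the T-lineage gate and 4.06 in the NK/ILC gate, where 78.0% of its early UMIs were in 1 cell. id3 had -1.14 in the T-lineage gate and 1.14 in the myeloid gate. The heat shock gene hsp90aa1.2 had -1.28 in the T-lineage gate and 1.69 in the B-lineage gate. igl4v8 had -1.68 in the B-lineage gate and 3.69 in the T-lineage gate. The neutrophil gene lect2l had -1.35 in the myeloid gate and 1.2 in the T-lineage gate.

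Between tissues, the copies of hbba1 had ratios of 3.23 (ENSDARG00000089087) and 3.09 (ENSDARG00000097238) in thymus, with -1.04 and -1.08 in kidney marrow. f13a1a.1 had -1.45 in thymus and 1.3 in kidney marrow. The effectors il13 and il4 had -1.95 and -1.47 in thymus, with 2.51 and 2.3 in intestine. ccl20a.3 had -1.11 in thymus, 2.39 in intestine and 2.45 in TLN. The immunoglobulin genes igic1s1 and ighv1-4 (ENSDARG00000096355) had -1.52 and -1.57 in thymus, with 3.49 and 1.84 in intestine. cd59 had -1.33 in thymus and 1.89 in intestine, and csf3a -1.9 and 1.6. Of the macrophage list, lgmn, apoeb and ctsz had 1.25, 1.63 and 1.21 in thymus, with -1.02, -1.82 and -1.1 in intestine. In the myeloid gate of the thymus lgmn and ctsz were also higher, but apoeb was lower.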

How the results depend on the processing

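The number of genes past 2-fold moved with the pseudocount, the UMI minimum and depth. In all cells 426 became 903 with a pseudocount of 1 CPM and 166 with 20 CPM. In the T-lineage gate 229 became 99 with 20 CPM, 139 with at least 100 UMIs and 345 with at least 20. In the NK/ILC gate 225 became 110 with 20 CPM, 87 with at least 100 UMIs, 511 with at least 20 and 110 with UMIs thinned to equal totals. In the B-lineage gate 129 became 59 with at least 100 UMIs and 363 with at least 20. In the myeloid gate 435 became 662 with 1 CPM, 150 with 20 CPM and 288 with at least 100 UMIs. The cause was not tested.

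The T-lineage share difference of -8.33 points was -5.81 with at least 3 gate genes, -0.142 with thinned cells and 0.086 in the wider lymphoid group, an alternative added after seeing the data. The NK/ILC difference of 1.95 was -0.278 with at least 3 gate genes. The B-lineage difference of -12.0 was -8.43 with at least 3 gate genes and -4.89 with thinned cells. Within the T-lineage gate, at least 3 gate genes gave 9.59 points for a rag1 or rag2 UMI, -7.75 for cd4-1 without cd8a and 6.35 (0.776 to 11.8) for cycling cells, and thinning gave -9.75 for cd4-1 without cd8a.

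Of 900 values of 100 named ratios under these alternatives, 880 kept their direction and side of 2-fold, 17 fell under 2-fold and 3 reversed: fthl28 in the T-lineage gate, at 1.6 without high doublet scores and 1.59 without its top cell, and cxcl11.5 in the myeloid gate, at -0.12 with at least 3 gate genes. Genes of the NK/ILC gate with at least 3 gate genes were not compared, since too few cells were left, and the alternatives for the neutrophil gate were not run. No paired analysis was possible because the labels give no replicate numbers and each group holds 1 library. Depth limits low genes most, and counting error is the only error that could be measured.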
